A study of Mus musculus with 4 samples.

Results

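Ccl6 and Ccl9 encode small secreted CC chemokines that lie side by side in the mouse genome, and there is no human gene of either name. Both proteins carry a longer N terminus than most CC chemokines, signal through the receptor CCR1, and gain activity when proteases of inflamed tissue trim that end. Macrophages and other myeloid cells are their known sources. IL-4 and the STAT6 factor it activates are known to raise Ccl6, and Ccl9 is known as a product of macrophages and of osteoclasts.

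The pair, Ccl6 (ENSMUSG00000018927) and Ccl9 (ENSMUSG00000019122), was matched by symbol in the tables of all 4 libraries and makes up 2 of the 18605 genes that every table listed. The genes were chosen by their summed UMIs in macrophages, where both were higher in the irradiated libraries, so that difference is described here and was not tested. Lewis lung carcinoma cells (LLC, a mouse lung tumor line) had been grown under the skin of C57/BL6N mice of 6 to 8 weeks to an average of 100 mm3. The control library (NT) was mock treated and combined 3 tumors in 1 library. The libraries RT1, RT2 and RT3 were 1 tumor each and had received 24 Gy in 3 fractions of 8 Gy on days 7 to 9 after injection, and all tumors were taken at 72 h after radiation. With 1 NT library there was no estimate of the spread between control tumors, and no p-value is given for RT against NT.

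The tables held 69667759 UMIs (single counted RNA molecules) in NT, 78585759 in RT1, 108699844 in RT2 and 85660188 in RT3. After barcodes with fewer than 200 genes or more than 20% mitochondrial UMIs were left out, 55058 cells remained, 9976 of NT, 15029 of RT1, 14993 of RT2 and 15060 of RT3. The RT2 table differed from the others: it listed genes by symbol only, and none of its barcodes exceeded 12.0% mitochondrial UMIs. Between 175 and 274 kept barcodes were shared by each pair of libraries. Cells were grouped into 19 clusters and named from marker genes as tumor cells, macrophages, monocytes, dendritic cells, neutrophils, lymphocytes, fibroblasts or endothelial cells. 3 clusters with 9799 cells stayed unnamed. The macrophage name rested on all 8 of its markers, among them Adgre1, C1qa and Mrc1, and their summed level in that class was 7822 CPM (UMIs scaled to 1e+06 UMIs of the class and library) in NT, 13373 in RT1, 14644 in RT2 and 11560 in RT3. Of these 8 markers 6 were higher in every RT library than in NT, C1qb the most abundant of them.

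The sequence just before the annotated start of each gene is shown because the genes are neighbors, were both higher in RT, and share a stretch there. It comes from the RefSeq promoter windows of build GRCm38.p6, minus strand, 5′ to 3′, Ccl6 at chr11:83593088-83593187 and Ccl9 at chr11:83578637-83578736, the last 100 bases before each start. Capitals mark bases that are identical in a best local alignment of the whole 300-base windows, 1 of 5 that scored alike.
Ccl6: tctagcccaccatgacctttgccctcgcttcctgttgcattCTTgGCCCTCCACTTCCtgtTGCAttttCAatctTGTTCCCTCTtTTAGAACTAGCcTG
Ccl9: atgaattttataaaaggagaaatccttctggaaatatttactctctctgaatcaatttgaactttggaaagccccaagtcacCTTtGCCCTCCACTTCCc
The alignment paired 67 bases, of which 58 (86.6%) were identical, with 7 gap bases. It began 59 bases before the annotated start of Ccl6 but only 18 bases before that of Ccl9, so that most of the shared stretch lies after the start of Ccl9 and is not printed. In the 250 bases before each start and on both strands, the ETS core GGAAGT, the kind of site bound by the myeloid factor PU.1, occurred 1 time in each gene, on the minus strand of the window and inside the shared stretch. The same 6 letters were found in 19.7% of all 32851 promoter windows of that length. TATAAA occurred 3 times before Ccl9, where the matches 94 and 92 bases before the start overlap, and had no match before Ccl6. It was present in 12.4% of all windows. TTGCNNAA (C/EBP), GGGA and CC with 4 free bases between them (NF-kB), and TTC and GAA with 3 or 4 free bases between them (STAT) had no match in either window, against 9.56%, 17.6%, 7.02% and 5.85% of all windows.

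Macrophages held the highest level of Ccl6, with 5106 CPM in NT, 12104 in RT1, 12392 in RT2 and 11789 in RT3. The 3 RT values lay close together and all stood above NT, whose exact 95% Poisson interval of 5019 to 5193 covers counting error only. The log2 ratio of RT over NT was 1.24 ± 0.04 (SD, n = 3 RT libraries). Ccl9 was counted at 1275 CPM in NT macrophages, 2666 in RT1, 2725 in RT2 and 2439 in RT3. Its RT values also lay above NT without overlap, at a log2 ratio of 1.03 ± 0.08 (SD, n = 3). A log2 ratio above 0 in every RT library was found for 33.5% of the 5196 genes with a mean of at least 20 CPM and a UMI in every library in macrophages, and a log2 ratio of at least 1 in every RT library for 2.10%. Ordered by the mean ratio, Ccl6 was number 112 and Ccl9 number 192 of the 5196, whose median was 0.00. The rule had used this contrast, so nothing further is read from these places.

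The marker level of macrophages moved in the same direction as the pair. Set against the summed UMIs of C1qa, C1qb and C1qc, which encode the complement component C1q and mark macrophages, Ccl6 stood at 1.03 UMIs per C1q UMI in NT, 1.68 in RT1, 1.33 in RT2 and 1.80 in RT3. The corresponding values of Ccl9 were 0.257, 0.371, 0.292 and 0.373. Both genes thus remained above NT in each RT library on this scale, by less than on the scale of all UMIs. Markers of other cell types were also counted in the class. The 8 monocyte markers summed to 1779 CPM in NT macrophages, 1409 in RT1, 1547 in RT2 and 2515 in RT3, with Thbs1 the most abundant, against 10679 to 18074 in monocytes. The 7 markers of osteoclast-type cells summed to 132, 432, 485 and 263, with Mmp9 the most abundant and Oscar at 0, and 3 of them were higher and 3 lower in every RT library. Rhox5, the most abundant of the 8 tumor markers there, was at 38.3 CPM in NT macrophages and at 68.4, 55.1 and 88.0 in RT1, RT2 and RT3, against 1069 to 1320 in tumor cells. The 8 tumor markers summed to 95.7, 157, 141 and 220 in macrophages, 7 of them were detected and Prl2c3 was at 0. The 8 fibroblast markers summed to 39.4, 104, 85.0 and 132, 7 of them higher in every RT library and Col3a1 the most abundant. The 8 basophil and mast cell markers summed to 49.7 in RT3 and to at most 1.53 in the other libraries, with Cpa3 the most abundant. All 8 neutrophil markers were detected in macrophages and summed to 21.0 in NT, 81.0 in RT1, 136 in RT2 and 69.8 in RT3, with Csf3r the most abundant. Without any cell that held a Rhox5 UMI the log2 ratio was 1.25 for Ccl6 and 1.08 for Ccl9. The median share of mitochondrial UMIs was 6.09% in NT macrophages and 5.60%, 4.89% and 5.17% in RT1, RT2 and RT3. With cells of at most 10% mitochondrial UMIs the log2 ratio was 1.22 for Ccl6 and 1.00 for Ccl9. The part of the other cell types and of cell quality in the difference was not tested.

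Monocytes came next for both genes. Their Ccl6 level was 4123 CPM in NT, 7589 in RT1, 6418 in RT2 and 6412 in RT3, a log2 ratio of 0.72 ± 0.14 (SD, n = 3). Their Ccl9 level was 1384 in NT, 2314 in RT1, 1770 in RT2 and 1876 in RT3, a log2 ratio of 0.51 ± 0.20. Every RT monocyte value was above NT for both genes, RT1 being the highest. The 8 monocyte markers of the class summed to 10729 CPM in NT, 12934 in RT1, 10679 in RT2 and 18074 in RT3, 6 of them higher in every RT library and none lower. Beside them, the 8 macrophage markers summed to 1833 CPM in NT monocytes, 2870 in RT1, 2583 in RT2 and 1617 in RT3, with C1qb the most abundant. The 8 neutrophil markers, each higher in every RT library, summed to 47.1, 122, 223 and 138, with S100a8 the most abundant. The 8 fibroblast markers, 5 of them higher in every RT library, summed to 71.8, 139, 98.4 and 174. The 8 dendritic cell markers summed to 108, 36.2, 40.7 and 45.5, with 5 of them lower in every RT library and none higher. The part of these other markers in the difference was not tested. Of the 5135 genes measured in monocytes 43.1% were higher in every RT library, and their median log2 ratio was 0.12. The name of this class rested on 8 markers, including Ly6c2, Plac8 and Ccr2, with Thbs1 the most abundant.

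The order of the cell classes differed between the genes. For Ccl6, macrophages exceeded monocytes in 4 of 4 libraries, by 0.70 ± 0.29 on the log2 scale (SD, n = 4), and monocytes exceeded neutrophils in 4 of 4, by 1.59 ± 0.96. For Ccl9, macrophages exceeded monocytes in 3 of 4 libraries, by 0.27 ± 0.31, a difference within the spread of the libraries, and NT was the library with the opposite order. That order in NT depended on how cells were classed and summed: macrophages were higher in all 4 libraries with cells classed one by one (0.53, lowest library 0.07) and with the mean of single cells (0.37, lowest library 0.01). Ccl9 in monocytes was above Ccl9 in dendritic cells in 4 of 4 libraries, by 2.92 ± 0.25. Together macrophages and monocytes held 91.2% to 92.4% of the Ccl6 UMIs and 91.3% to 92.4% of the Ccl9 UMIs of each library.

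**Figure D1:**
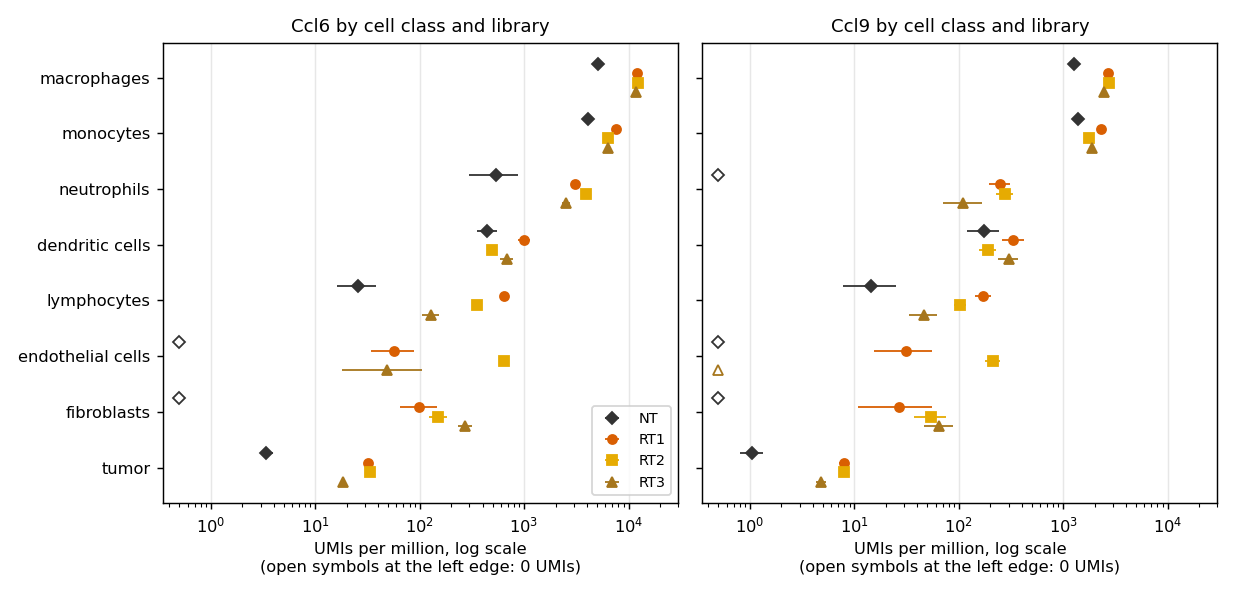
Level of Ccl6 (left) and Ccl9 (right) in CPM of each cell class (x axis, log scale), with 1 point per library and exact 95% Poisson intervals of the counts as bars; open symbols at the left edge mark 0 UMIs. Macrophages and monocytes are at the top for both genes, and neutrophils hold Ccl6 at 2501 to 3911 in the RT libraries but Ccl9 at 111 to 274.

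Neutrophils carried Ccl6 with little Ccl9. Their Ccl6 level was 533 CPM in NT, 3050 in RT1, 3911 in RT2 and 2501 in RT3. The NT value rests on 15 UMIs in 20 cells, with an exact interval of 298 to 879, and all RT values lie above that interval. The 8 neutrophil markers of the class summed to 10513 CPM in NT, 26692 in RT1, 37623 in RT2 and 23469 in RT3, in the same order of libraries as Ccl6, with S100a8 the most abundant. The 8 macrophage markers summed to 35.5, 622, 805 and 212 there, also in the order of libraries of Ccl6, with C1qb the most abundant. The 8 monocyte markers summed to 3907, 6836, 5594 and 4997, with Thbs1 the most abundant and 6 of them higher in every RT library. The 7 markers of osteoclast-type cells summed to 71.0, 517, 744 and 183, again in the order of libraries of Ccl6, with Mmp9 the most abundant. The part of any of these in the difference was not tested. The Ccl9 level of neutrophils was 248 in RT1, 274 in RT2 and 111 in RT3, with 0 UMIs in NT, where 3 UMIs would have given 107 CPM. The number of Ccl6 UMIs per Ccl9 UMI in neutrophils was 12.3 in RT1, 14.3 in RT2 and 22.6 in RT3, against 4.54, 4.55 and 4.83 in macrophages and 3.28, 3.63 and 3.42 in monocytes of the same libraries. The ratio of neutrophils was thus above that of both other classes in each of the 3 RT libraries, while the ratio of macrophages was above that of monocytes in 4 of 4. Neutrophils were shallow cells, with medians of 631 to 915 UMIs, and Rhox5 was at 481 to 721 CPM in them. The median log2 ratio of the 4637 genes measured in neutrophils was -0.42, and 21.1% of them were higher in every RT library.

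Dendritic cells held Ccl6 at 445 CPM in NT, 1004 in RT1, 492 in RT2 and 679 in RT3, and Ccl9 at 173, 333, 189 and 300. RT2 was close to NT for both genes. The 8 dendritic cell markers of the class summed to 4150 CPM in NT, 2545 in RT1, 2362 in RT2 and 2528 in RT3, 6 of them lower in every RT library, with Ccr7 the most abundant. The 8 monocyte markers summed to 586, 1653, 1617 and 1448, with Plac8 the most abundant, and the 8 macrophage markers to 188, 667, 318 and 336, with Csf1r the most abundant. The 8 tumor markers summed to 152, 234, 183 and 574, with Rhox5 the most abundant. The 8 fibroblast markers summed to 26.2, 104, 91.3 and 415, with Col3a1 the most abundant. The part of these markers in the difference was not tested. Of the 5418 genes measured in dendritic cells 31.5% were higher in every RT library.

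In tumor cells, lymphocytes, fibroblasts and endothelial cells the pair was below its level in macrophages and monocytes in every library. The level of Ccl6 in tumor cells was 3.41 CPM in NT, 31.8 in RT1, 33.6 in RT2 and 18.3 in RT3, and that of Ccl9 was 1.05, 7.96, 7.91 and 4.78. Tumor cells held 1.36 Ccl6 UMIs per C1q UMI in NT, 2.07 in RT1, 1.38 in RT2 and 2.37 in RT3. In lymphocytes the level of Ccl6 was 25.7 CPM in NT, 639 in RT1, 353 in RT2 and 128 in RT3, and they held 0.742, 2.53, 1.51 and 1.54 Ccl6 UMIs per C1q UMI. Macrophages held 1.03 to 1.80, RT monocytes 4.27 to 9.66 and RT neutrophils 8.33 to 27.4 Ccl6 UMIs per C1q UMI. For Ccl9 the values were 0.326 to 0.620 in tumor cells and 0.419 to 0.677 in lymphocytes, against 0.257 to 0.373 in macrophages. Fibroblasts held 5.20 Ccl6 UMIs per C1q UMI in RT1, from 5 C1q UMIs, 1.23 in RT2 and 1.57 in RT3, and endothelial cells held 1.78 in RT2 and, in RT1, 20 Ccl6 UMIs beside 5 C1q UMIs. The source of the UMIs in these classes was not tested. In lymphocytes of RT1, RT2 and RT3 the richest 5% of cells carried 91.2%, 86.7% and 82.0% of the Ccl6 UMIs, against 21.5% to 23.8% in RT macrophages. In endothelial cells of RT2, the 1 endothelial value well above the rest at 636 CPM, that share was 87.9% of 430 UMIs. In fibroblasts Ccl6 was at 99.3 in RT1, 151 in RT2 and 274 in RT3, the last with 95.9% of 170 UMIs in the richest 5% of cells. No Ccl6 UMI was found in the 17 fibroblasts or the 34 endothelial cells of NT, where 3 UMIs would have given 32.6 and 16.9 CPM.

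The macrophages, monocytes and dendritic cells, 14576 cells in all, were divided further into 14 sub-clusters without the CC ligands among the genes used. Ccl6 was higher than NT in every RT library in 13 of the 14, and lower in every RT library in 1. Ccl9 was higher in 13 and lay on both sides of NT in the other. The highest Ccl6 levels belonged to 2 sub-clusters with different leading genes. Sub-cluster 0, led by Lyve1, Cd209f and Cd163, genes of macrophages that reside in tissue, held 8943 CPM in NT, 15055 in RT1, 16182 in RT2 and 14743 in RT3. Sub-cluster 8, led by Mmp12, Cxcl5 and Gpnmb, held 10813 in NT, 14913 in RT1, 14795 in RT2 and 14054 in RT3. In NT sub-cluster 8 was the higher of them, and in the RT libraries sub-cluster 0, in RT1 within the counting intervals. For Ccl9 the same sub-clusters led in the RT libraries, sub-cluster 8 with 2997 in NT and 3471, 3572 and 3506 in the RT libraries, and sub-cluster 0 with 2156, 3156, 3430 and 2872, while in NT sub-cluster 5 came after sub-cluster 8, at 2209.

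The difference between RT and NT was unequal across these states. It was largest in sub-cluster 1, led by Cxcl9, Ifnb1 and Vcam1, where Ccl6 stood at 2757 CPM in NT, 9153 in RT1, 9506 in RT2 and 9564 in RT3, a log2 ratio of 1.77 ± 0.03 (SD, n = 3), and Ccl9 at 758, 2010, 2111 and 1919, a log2 ratio of 1.41 ± 0.07. In sub-cluster 8, where both were high in NT, the log2 ratios were 0.43 ± 0.05 for Ccl6 and 0.23 ± 0.02 for Ccl9. In sub-cluster 5, led by the monocyte genes Chil3 and Vcan, they were 0.41 ± 0.18 and 0.14 ± 0.13, and Ccl9 of RT2 at 2458 and of RT3 at 2224 were within the counting interval of NT, 1956 to 2486. Cycling cells, sub-cluster 12 with Top2a and Mki67, held Ccl6 at 3412 in NT, 7712 in RT1, 6240 in RT2 and 8787 in RT3. The exception, sub-cluster 13, consisted of dendritic cells with Ccr7, the receptor that leads them to lymph nodes. It held Ccl6 at 363 in NT, 342 in RT1, 228 in RT2 and 274 in RT3, from 18, 12, 21 and 10 UMIs, and every RT value lay within the counting interval of NT, 215 to 573.

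2 sub-clusters were led by genes of other cell types. Sub-cluster 3 was led by the mast cell genes Cma1, Cpa3 and Mcpt4 and held Ccl6 at 5551 in NT, 11330 in RT1, 12427 in RT2 and 11413 in RT3. Of its 1442 cells, 1342 were classed as macrophages, and its markers scored highest for tissue-type macrophages. In the macrophage class Cma1 had 0 UMIs in NT, 2 in RT1, 4 in RT2 and 389 in RT3. Sub-cluster 11 was led by genes that include the tumor markers Krt8 and Rhox5. The mix of macrophages also shifted. Sub-cluster 0 made up 18.6% of NT macrophages and 33.1%, 30.2% and 27.6% of RT1, RT2 and RT3 macrophages, and the cycling sub-cluster 12.9% against 1.53%, 1.74% and 1.51%. With the RT libraries reweighted to the NT mix of sub-clusters, Ccl6 in macrophages came to 11018, 11185 and 11123, a log2 ratio of 1.12 ± 0.01, and Ccl9 to 2473, 2502 and 2332, a log2 ratio of 0.93 ± 0.05.

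**Figure D2:**
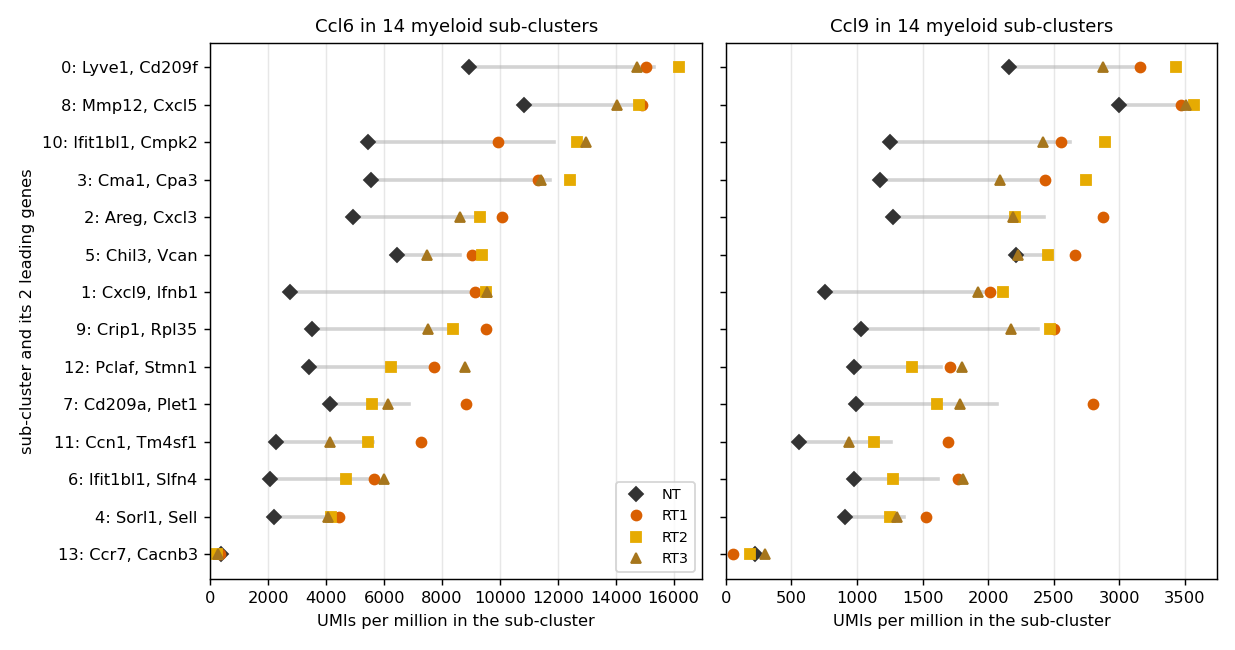
Level of Ccl6 (left) and Ccl9 (right) in 14 myeloid sub-clusters, named by number and their 2 leading genes, in CPM (x axis, from 0); each symbol is 1 library and the grey line joins NT with the mean of the RT libraries. The RT symbols lie to the right of NT in every sub-cluster except 13 for both genes, and the gap is widest in sub-cluster 1 for its NT level (2757 against 9153 to 9564 for Ccl6).

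Levels were also compared cell by cell. The median NT macrophage held Ccl6 at 2787 CPM, against 10963 in RT1, 10870 in RT2 and 10088 in RT3. The 10th percentile was 0 in NT, whereas it was 3081 in RT1, 2510 in RT2 and 1772 in RT3. The median of Ccl9 was 811 in NT, 2319 in RT1, 2354 in RT2 and 1988 in RT3. The richest 10% of macrophages held 46.4% of the Ccl6 UMIs in NT and 35.1%, 34.5% and 37.1% in the RT libraries. The UMIs of Ccl6 were thus spread more evenly over RT macrophages than over NT macrophages. The same order was seen for Ccl9, with 45.8% against 35.1%, 34.6% and 37.2%. These shares are of UMIs not scaled by cell, so the depth of the cells enters them as well as the level.

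**Figure D3:**
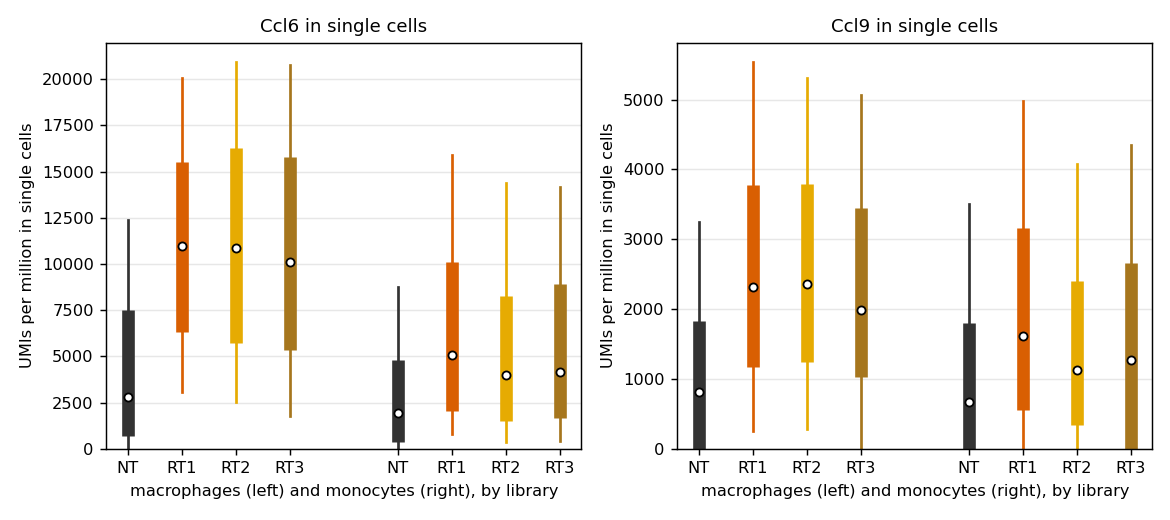
Ccl6 (left) and Ccl9 (right) in single macrophages and monocytes of each library, in CPM of the cell (y axis, from 0); white points are medians, thick bars the 25th to 75th percentile and thin lines the 10th to 90th. The median Ccl6 of RT macrophages is at 10088 to 10963, above the 75th percentile of NT at 7482.

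To compare shares of cells at 1 depth, each cell was thinned to 1000 UMIs and shallower cells were left out, 109 of NT and 443, 361 and 281 of RT1, RT2 and RT3 macrophages. A Ccl6 UMI was then present in 77.6% of NT macrophages and in 98.0%, 97.4% and 96.2% of RT1, RT2 and RT3 macrophages, and a Ccl9 UMI in 53.5% against 85.0%, 85.1% and 81.3%. In monocytes the shares were 77.7% against 92.1%, 87.5% and 89.2% for Ccl6 and 58.5% against 75.1%, 65.3% and 68.8% for Ccl9. Tumor cells, set beside them as a class in which the pair was low, had a Ccl6 UMI in 0.396% of NT cells and in 3.41%, 4.12% and 2.25% of RT cells, with median depths of 6230 to 9127 UMIs before thinning against 2382 to 4244 in macrophages. Among RT neutrophils of that depth 62.2% in RT3 (37 cells) and 84.3% in RT2 (108 cells) had a Ccl6 UMI, with RT1 (60 cells) between them, and 2.70% and 16.7% a Ccl9 UMI, with RT1 above both.

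Within a library the genes varied together from cell to cell. Across macrophages with at least 1000 UMIs, the Spearman correlation of their levels was 0.71 in NT (611 cells), 0.55 in RT1 (2295), 0.62 in RT2 (2342) and 0.59 in RT3 (1306). In monocytes it was 0.52 in NT, 0.61 in RT1, 0.62 in RT2 and 0.53 in RT3. Cells of a library share its depth and are not replicates, so these values are a description. Across the 14 sub-clusters, by the mean of the 4 libraries on the log2(CPM + 1) scale, each gene was the one most like the other (Pearson r = 0.98). Next for Ccl6 came Slc37a2, Mitf, a factor of macrophages and osteoclasts, Rcbtb2 and Fcgr3, at 0.98, 0.98, 0.97 and 0.97. Next for Ccl9 came Lat2, Mitf, Slc37a2 and Cd200r1, at 0.98, 0.97, 0.96 and 0.96. Across the 8 cell classes the genes were again among the most alike of the 8920 compared, though not each the first of the other. Most like Ccl6 were Fcgr3, Itgam, Fcgr4, C5ar1 and Cd300ld at 0.97 to 0.99, and Ccl9 came 12th at 0.96. Most like Ccl9 were Lyz2, Rap1b, Clec4a1, Csf1r and Ms4a8a at 0.98 to 0.99, and Ccl6 came 15th. Likeness in this sense did not always extend to the difference between RT and NT: in macrophages Fcgr3, a receptor for antibody, stood at 551 CPM in NT, 1446 in RT1, 1396 in RT2 and 1121 in RT3, while C5ar1, the receptor of complement C5a, stood at 1020 against 1025, 833 and 832.

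The other CC ligands did not share 1 direction. Of 21 listed, 19 were in the tables and 10 reached 20 CPM in macrophages. Higher in every RT library were Ccl2, Ccl6, Ccl8, Ccl9 and Ccl24, lower in every RT library were Ccl3, Ccl4 and Ccl12, and Ccl5 and Ccl7 lay on both sides. Of all genes measured in macrophages 33.5% stood above NT in each RT library and 33.3% below. The median log2 ratio of the 8 ligands other than the pair was -0.04, against 0.00 for all genes.

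Ccl4, which draws T cells and monocytes, was the most abundant CC ligand of NT macrophages at 9524 CPM and stood at 5167 in RT1, 4292 in RT2 and 4764 in RT3, a log2 ratio of -1.01 ± 0.13. Ccl3, like the pair a ligand of CCR1, stood at 3364 in NT and 2837, 2134 and 1784 in the RT libraries (-0.61 ± 0.34). In RT macrophages Ccl6 took the place of Ccl4 as the CC ligand with the most UMIs. Ccl8, a monocyte attractant, stood at 1618 in NT and 6225, 4517 and 5106 in RT (1.69 ± 0.23), more than the ratio of Ccl6 in each RT library. Ccl24, an eosinophil attractant induced by IL-4, was low at 24.1 in NT and 61.0, 64.5 and 61.2 in RT (1.37 ± 0.04). Ccl2, the main ligand of CCR2, stood at 4992 in NT and 6721, 5338 and 5385 in RT (0.21 ± 0.19). Counts come from 3′ ends, so UMIs of different genes are compared without a correction for length.

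In monocytes 7 of the 10 measured ligands were higher in every RT library (Ccl2, Ccl6, Ccl7, Ccl8, Ccl9, Ccl12 and Ccl24) and Ccl3, Ccl4 and Ccl5 were lower, beside 43.1% and 22.3% of all genes. The median log2 ratio of the 8 ligands other than the pair was 0.76 there, against 0.12 for all genes. Ccl6 at 0.72 and Ccl9 at 0.51 were below that median of the other ligands. Ccl12, a CCR2 ligand, was lower in RT macrophages and higher in RT monocytes. Its macrophage level was 1786 in NT and 1589, 1166 and 1332 in RT, and its monocyte level 255 in NT and 609, 718 and 508 in RT.

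**Figure D4:**
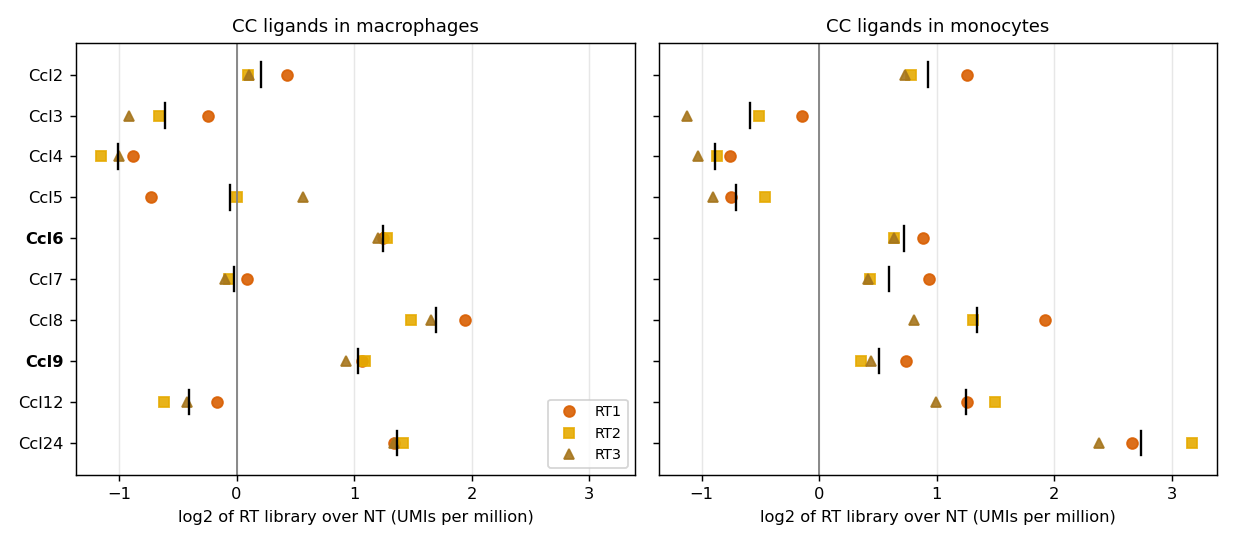
Log2 ratio of each RT library over NT for the CC ligands with at least 20 CPM in macrophages (left) or monocytes (right); symbols are RT libraries, black ticks their mean, and the grey line marks equality with NT. Ccl6 and Ccl9 lie to the right of the line in both classes, with Ccl2, Ccl8 and Ccl24, while Ccl3 and Ccl4 lie to the left in both.

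Position along the chromosome did not sort the genes by direction. In the RefSeq order of build GRCm38.p6, Ccl9 and Ccl6 are separated by 1 annotated gene, the noncoding E230016K23Rik, with Ccl5 before them and Ccl3 and Ccl4 after. Of 52 genes annotated within 500 kb, 28 were in the tables and 13 reached 20 CPM in macrophages or monocytes. The order of measured genes in macrophages ran from Ccl5 (log2 ratio -0.05 ± 0.65) over Ccl9 and Ccl6 to Ccl3 and Ccl4, which were lower, and on to Wfdc17, a small secreted protein of the whey acidic protein family. Wfdc17 stood at 1633 CPM in NT, 5585 in RT1, 5593 in RT2 and 5261 in RT3, a log2 ratio of 1.75 ± 0.05, above that of the pair. Beyond Wfdc17, Ddx52 (-0.23 ± 0.11) was lower in every RT library. On the other side, before Ccl5, Slfn4 (1.35 ± 0.24), Slfn1 (0.80 ± 0.56) and Ap2b1 (0.25 ± 0.23) were higher in every RT library, and AI662270 (-0.57 ± 0.06) was lower. In monocytes Taf15 (0.27 ± 0.17) and Wfdc21, at 1.12 CPM in NT from 1 UMI and 34.7, 54.5 and 43.3 in RT, also passed the floor.

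**Figure D5:**
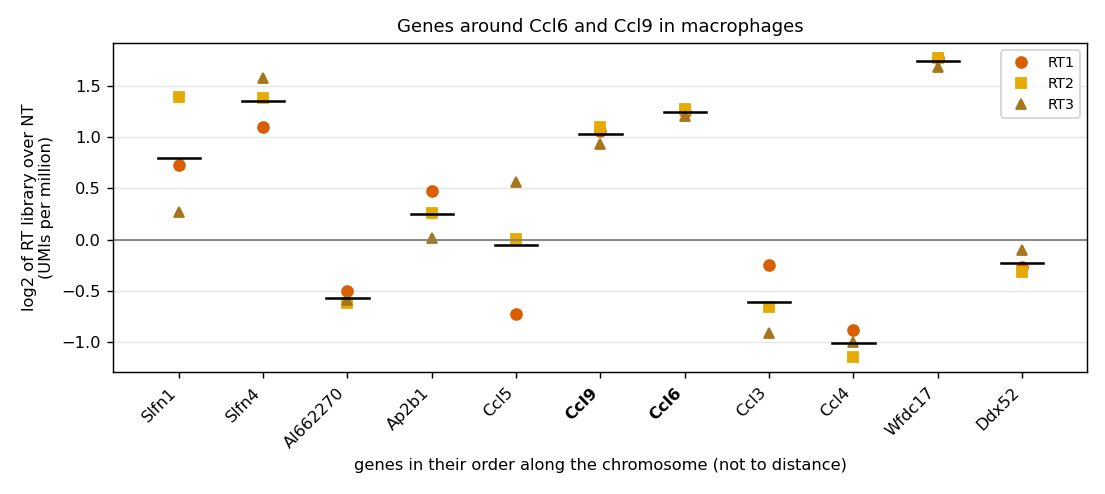
Log2 ratio of each RT library over NT in macrophages for the genes within 500 kb of Ccl6 or Ccl9 that reached 20 CPM there, in chromosome order but not to distance; symbols are RT libraries and black lines their mean. Ccl9 and Ccl6 lie at 1.03 and 1.24 between Ccl5 near 0 and the lower genes Ccl3 and Ccl4.

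The receptor of the pair was present in the same myeloid cells. Ccr1 stood at 241 CPM in NT macrophages and 260, 183 and 189 in RT1, RT2 and RT3, at 231 in NT monocytes and 395, 307 and 321 in RT, and at 533 in NT neutrophils and 604, 562 and 452 in RT. It was thus on both sides of NT in macrophages and neutrophils and higher in every RT library in monocytes. Ccr2, the receptor that brings monocytes into tissue, was lower in macrophages of every RT library, at 125 in NT and 46.6 and 42.4 in RT1 and RT2, with RT3 between these and NT, and Ccrl2 lay on both sides. Ccr3 did not exceed 2.85 CPM in macrophages.

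Of the proteases listed for their ability to trim chemokines or for their place in inflamed tissue, 6 of 12 were measured in macrophages, and 5 were higher in every RT library and none lower, beside 33.5% and 33.3% of all genes. Ctsb and Ctsl, lysosomal cysteine proteases, stood at 5736 and 1227 in NT and at 10541, 9182 and 9526 and 2348, 1901 and 2135 in RT. Mmp9, a gelatinase, stood at 71.9 in NT and 285, 415 and 112 in RT. The neutrophil proteases Elane and Ctsg had no UMI in the macrophages or neutrophils of any library. Cma1, a chymase of mast cells, was at 82.3 in RT3 macrophages and at most 0.291 in the other libraries.

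Genes of the IL-4 and STAT6 pathway did not share 1 direction. Of 15 listed, 13 were measured in macrophages, 8 were higher in every RT library and 2 lower, with a median log2 ratio of 0.37, beside 33.5% and 33.3% of all genes and a median of 0.00. Il4ra, the receptor chain for IL-4, stood at 76.9 in NT and 147, 157 and 105 in RT. Stat6 stood at 62.4 in NT and 79.0, 103 and 64.5 in RT. Retnla, a STAT6 target, was at 118 in NT, 213 in RT1, 11.1 in RT2 and 11.2 in RT3, and Tgm2 was lower in every RT library. In monocytes 6 of 13 were higher and 2 lower, beside 43.1% and 22.3% of all genes. Of 12 myeloid transcription factors, all measured in macrophages, Maf and Nfatc1 were higher in every RT library and Spi1, Cebpa and Rela lower, with a median of -0.06, again beside 33.5% and 33.3%. Spi1, which encodes PU.1, stood at 340 in NT and 224, 276 and 238 in RT. In monocytes 1 factor, Maf, was higher and 7 were lower, beside 43.1% and 22.3%.

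In the whole libraries the fold of the pair exceeded that in macrophages and in monocytes, and both the levels and the mix of cells differed. Over all kept cells Ccl6 stood at 266 CPM in NT, 1899 in RT1, 2042 in RT2 and 938 in RT3, and Ccl9 at 71.3, 447, 466 and 213. The folds of Ccl6 over NT were 7.14, 7.68 and 3.53. With every class held at its NT level and only the UMI shares of the classes taken from the RT library, the folds were 3.02, 3.32 and 1.65. With the NT shares and the RT levels they were 2.49, 2.43 and 2.21. RT3, with the smallest share of macrophages among the RT libraries (10.5% of cells against 18.2% and 18.0%, and 7.22% in NT), had the smallest fold over all cells, while its macrophage level lay close to those of RT1 and RT2.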

How the data were processed

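Single-cell suspensions of the tumors were prepared by the authors on the microwell-based SeekOne MM platform, which reads 3′ ends. The deposited values are UMI counts per gene and barcode, as whole numbers without normalization, made with the SeekOne Tools pipeline and with cells already called. The submitters' processing notes name STAR 2.5.1b, featureCounts, Subread 1.6.4 and Cell Ranger and the builds GRCm39 and mm39, without saying which step used them. RefSeq sequences and gene order are of GRCm38.p6, and no coordinates were carried between builds.

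Libraries were joined on gene symbols, after barcodes under 200 genes or over 20% mitochondrial UMIs had been dropped. Counts were scaled to 10000 per cell, and 2000 variable genes without the CC ligands, receptors and other compared genes gave 30 components, which were aligned across libraries with the Harmony method rewritten for this work and clustered with leidenalg 0.10.2 at resolution 0.8 (Python 3.11.15). Classes other than tumor needed a marker score of at least 2 on the log2 scale, a rule set after the clusters were seen. Doublets were scored and kept, and an alternative left out the highest 8% of scores in each library.

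UMIs of each class and library were summed and divided by the class total (CPM). Intervals are exact 95% Poisson intervals. Genes with a mean of at least 20 CPM over the 4 libraries and a UMI in each counted as measured. The ratio step was tested on simulated data. edgeR 4.0.16 gave the TMM factors of 1 alternative. Ccl6, Ccl9 and the gene lists were chosen with earlier results of these data known. Genes named are the pair, measured CC ligands, Ccr1, Ccr2 and Ccr3, measured genes within 500 kb, members of the lists, and the 5 genes most like each, and some results of these lists are not reported here. The NT library came from 3 pooled tumors, so the SD is over RT libraries only.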

Additional observations from a re-analysis of the deposited data

Results flagged for a closer look

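In the sub-cluster of Ccr7 dendritic cells (number 13) every RT library was below NT for Ccl6, at a mean log2 ratio of -0.39, whereas in the 13 other myeloid sub-clusters every RT library was above NT. The difference between them was not tested, and the NT value rests on 18 UMIs in 17 cells. Several compared genes lay below NT in every RT library in 1 class and above it in the other, also without a test of the difference. Ccl12 had a mean log2 ratio of -0.40 in macrophages and 1.25 in monocytes. Ccr2, the receptor that brings monocytes into tissue, had -1.33 and 0.44. Il13ra1, a receptor chain shared by IL-4 and IL-13, had -0.52 and 0.43, and Clec10a, a lectin of macrophages and dendritic cells, had 1.09 and -0.30. The noncoding gene AI662270, which lies within 500 kb of the pair, had -0.57 and 0.42.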

How the results depend on the processing

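No paired analysis was possible because NT was 1 library and shared no replicate number with 2 or more RT libraries. In each of 12 other ways of processing, which varied scaling, depth, doublets, filters, cell classes, clustering and sub-cluster mix, both genes were above NT in every RT library in macrophages and in monocytes. The log2 ratio in macrophages ran from 1.12 to 1.27 for Ccl6 and from 0.93 to 1.19 for Ccl9, and in monocytes from 0.58 to 0.84 and from 0.36 to 0.62. Values that left the spread of the RT libraries in macrophages were 1.18 for Ccl6 with cells classed one by one, 1.12 and 0.93 for Ccl6 and Ccl9 with RT reweighted to the sub-cluster mix of NT, and 1.19 for Ccl9 with cells thinned to 1000 UMIs. Without 1 RT library at a time the macrophage ratio was 1.23 to 1.26 for Ccl6 and 1.00 to 1.08 for Ccl9, the monocyte ratio 0.64 to 0.76 and 0.40 to 0.59, and the log2 difference of macrophages over monocytes 0.62 to 0.71 and 0.15 to 0.29. With cells classed one by one that difference was 0.98 for Ccl6 and 0.53 for Ccl9, and the NT order of Ccl9 turned. The count of CC ligands on 1 side of NT in macrophages was 8 of 10, beside 33.5% of all genes above NT and 33.3% below. Without 1 RT library the count was 8 to 10, 10 without RT1, where fewer libraries have to agree. The share of all genes was not computed for these counts. Without the shallow macrophage cluster, an alternative chosen after seeing the data, the ratios were 1.25 and 1.04. Counts were few in NT neutrophils, with 15 Ccl6 UMIs in 20 cells, and in the Ccr7 dendritic cells of every library, with 10 to 21. NT pools 3 tumors, and pooling, library and treatment cannot be told apart.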

Other observations

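The 3 unnamed clusters held 5.62% to 6.34% of the Ccl6 UMIs of each library. Their Ccl6 level was 198 CPM in NT, 868 in RT1, 735 in RT2 and 516 in RT3, and their Ccl6 UMIs per Ccl9 UMI were 4.06, 4.23, 4.48 and 4.54, each between the values of monocytes and macrophages in RT libraries and just above that of macrophages in NT. The noncoding gene E230016K23Rik, the 1 annotated gene between Ccl9 and Ccl6, stayed under the floor of 20 CPM in macrophages, at 4.97 in NT, 18.2 in RT1, 14.9 in RT2 and 16.3 in RT3. It was named after its values were seen. In monocytes it was at 24.7 in NT and 22.6, 13.9 and 14.3 in RT. Markers of B and plasma cells summed to 47.8 CPM in NT macrophages and to 6.47, 12.3 and 9.73 in RT, with Ighm the most abundant at 44.0 in NT.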
